A study of Mus musculus with 6 samples.

Results

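Genes that bring fatty acids into liver cells or carry them inside were followed in mice lacking RECS1 in hepatocytes. The 10 genes are the scavenger receptor Cd36, the receptor Vldlr, the lipase Lpl, the binding proteins Fabp1, Fabp2 and Fabp4, and the transport proteins Slc27a1, Slc27a2, Slc27a4 and Slc27a5. Every probe set that the platform annotation pairs with 1 of these symbols was taken, which gave 23 of the 38195 probe sets tested and 10 of 18029 genes. The members were grouped by function, and the choice was made with earlier results of these data known.

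Livers came from C57BL/6 mice of 2 genotypes. Controls carried floxed RECS1 alleles (RECS1-flox, n = 3), and RECS1-HKO mice lacked the gene in hepatocytes (n = 3). All 6 mice, aged 16 weeks, had eaten a high-fat diet for the last 8 weeks. No lean group was analysed here, so each difference below holds on this diet. The labels name neither the sex of the mice nor the Cre driver, nor do they say whether controls carried Cre. The gene is now called Tmbim1 and encodes a multi-pass membrane protein.

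Fatty acids reach the liver mainly as free acids bound to albumin and, in part, from triglyceride in lipoproteins. Lipoprotein lipase splits that triglyceride, and the VLDL receptor binds and takes in triglyceride-rich particles. CD36 and the SLC27 (FATP) proteins promote entry at the plasma membrane, and SLC27 proteins also act as acyl-CoA synthetases, which traps the acid inside. Small cytosolic FABP proteins then carry it to membranes, peroxisomes, mitochondria and the nucleus. A healthy adult liver expresses Fabp1, Slc27a2 and Slc27a5 strongly. Cd36, Vldlr, Lpl and Fabp4 are better known from fat, muscle, macrophages and capillaries, and are often raised in fatty liver.

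Values are log2 intensities made by the authors with RMA, a method that normalizes the arrays to each other and summarizes the probes of a set. Probe sets differ in how well they hybridise, so no gene's brightness is set against another's. Array medians lay between 3.92 and 3.95. Correlations between arrays were 0.995 to 0.996 within a genotype and 0.991 to 0.994 across genotypes. Tmbim1 itself fell from 7.65 ± 0.08 to 7.13 ± 0.07 (SD, n = 3 each). Its difference was -0.52 ± 0.08 log2 units (SE; limma, Benjamini-Hochberg adjusted p = 0.0338). Over genes, with 1 probe set each, its adjusted p was 0.026, and it lay between 0.065 and 0.0967 in the fits that left out any 1 array. The labels do not say whether its probe set lies in the deleted part, so this is a limited check of the genotypes.

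Cd36 and Vldlr rose in HKO liver, and no probe set of the other 8 genes passed the test. All 3 probe sets of Cd36 rose, by 1.61 to 1.81 log2 units, which is 3.05 to 3.5 times the control level. Of the 6 probe sets of Vldlr 4 rose, by 0.94 to 2.01 log2 units, or 1.92 to 4.04 times. Fabp4 had positive values in all 4 of its probe sets, none of which passed. The liver forms Fabp1, Slc27a2 and Slc27a5 lay within 0.18 log2 units of the control mean in every probe set.

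The count was 7 probe sets higher and 0 lower of 23 (limma, adjusted p under 0.05 over all probe sets). At an unadjusted p under 0.05 (limma) it was 13 higher and 0 lower. Such a p was reached by 4495 of all 38195 probe sets, in either direction. At the adjusted threshold 0.702% of all probe sets passed, 0.367% higher and 0.335% lower, against 30.4% of these 23. The 23 are not independent, since probe sets of a gene measure the same RNA. Counted as genes, with the probe set of highest mean for each, 2 of 10 rose, against 1.01% of all genes that passed in either direction and 0.56% that rose. The median difference of the 10 genes was 0.08, against -0.004 over all 18029 genes, so the typical gene of the group lay close to its control level. Whether the change of 1 gene differed from that of another was not tested.

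**Figure D1:**
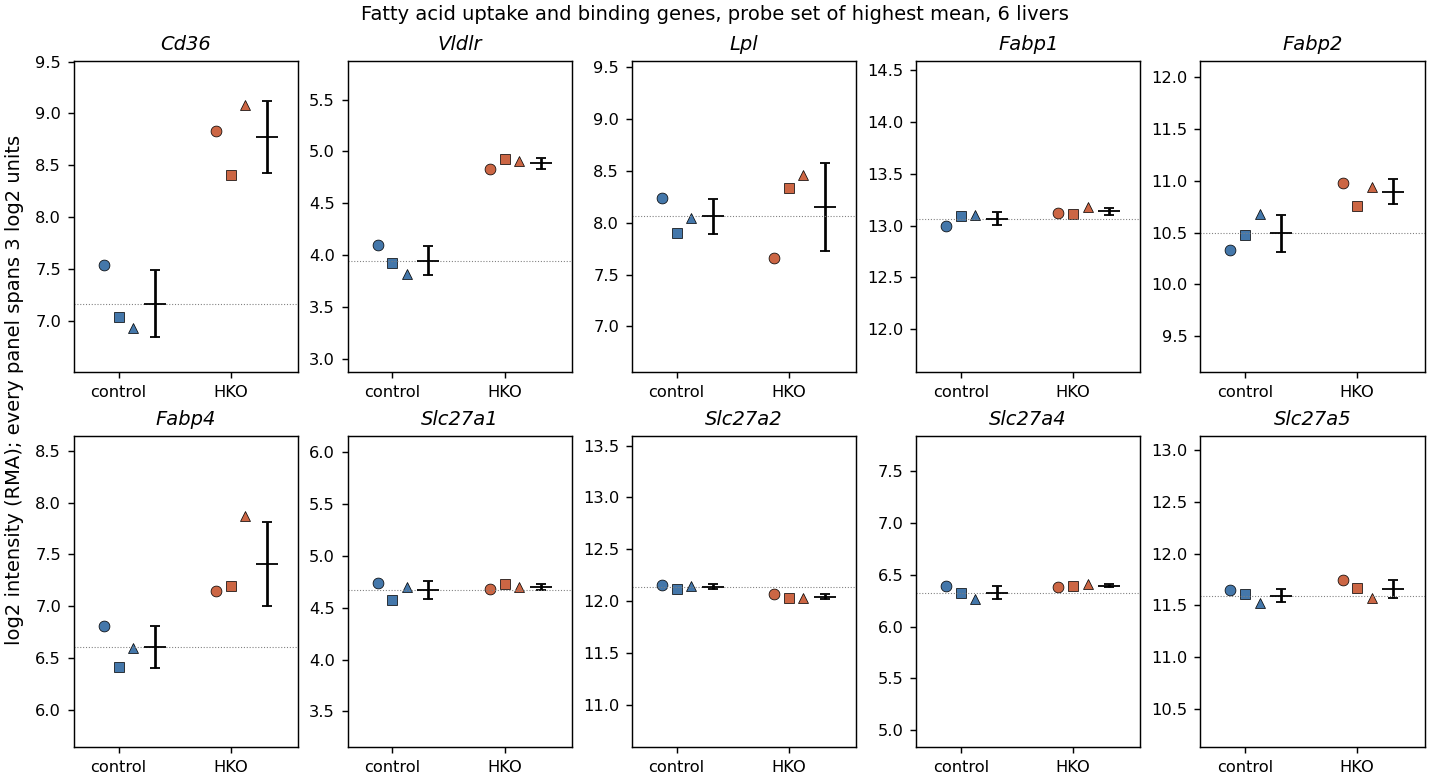
Log2 intensity (vertical axis, RMA, each panel spanning 3 log2 units) of the 10 genes on the 3 control and 3 HKO arrays, for the probe set of highest mean; symbols mark arrays 1 (circle), 2 (square) and 3 (triangle), and bars give mean ± SD. HKO points of Cd36 and Vldlr lie well above all control points, while those of Lpl, Slc27a1, Slc27a4 and Slc27a5 overlap with the controls.

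Cd36, a membrane receptor that promotes uptake of long-chain fatty acids, is a target of PPARg in mouse liver. In its brightest probe set, 1423166_at, the control livers had 7.53, 7.04 and 6.93 and the HKO livers 8.83, 8.40 and 9.09. The lowest HKO value was 0.87 log2 units above the highest control value. The log2 fold change was 1.61 ± 0.20 (SE, n = 3 each; limma adjusted p = 0.0106), with a 95% confidence interval from 1.16 to 2.06.

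The other Cd36 probe sets gave similar changes from dimmer levels. Probe set 1450883_a_at had control values of 7.10, 6.56 and 6.51 and HKO values of 8.36, 7.99 and 8.98, a log2 fold change of 1.72 ± 0.24 (limma adjusted p = 0.023). Probe set 1450884_at had control values of 5.57, 4.90 and 5.10 and HKO values of 6.99, 6.70 and 7.30, a log2 fold change of 1.81 ± 0.19 (limma adjusted p = 0.00465). Groups did not overlap in any of the 3. In each of them control 1 was the highest control, HKO 3 the highest HKO liver and HKO 2 the lowest.

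Only the last of these probe sets passed in all 6 fits without 1 array (adjusted p from 0.00413 to 0.0462). Probe set 1423166_at did not pass without control 2 (log2 fold change 1.54, limma adjusted p = 0.0591), control 3 (1.49, 0.0528) or HKO 1 (1.58, 0.0811). Probe set 1450883_a_at did not pass without the same 3 arrays (1.64, 0.095; 1.62, 0.0966; and 1.77, 0.112). Over these fits of the 3 probe sets the change stayed between 1.45 and 2.00 log2 units while the adjusted p crossed the threshold.

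Vldlr encodes a receptor of the LDL receptor family that binds apolipoprotein E on triglyceride-rich particles and is normally scarce in liver. Its brightest probe set, 1438258_at, had control values of 4.09, 3.93 and 3.82 and HKO values of 4.83, 4.93 and 4.91. The HKO livers lay close together (SD 0.05) and at least 0.735 above every control. The log2 fold change was 0.94 ± 0.09 (SE, n = 3 each; limma adjusted p = 0.00282).

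Dimmer probe sets of Vldlr showed larger changes. In 1434465_x_at the controls had 2.99, 2.96 and 3.14 and the HKO livers 5.20, 4.84 and 5.10, a log2 fold change of 2.01 ± 0.11 (limma adjusted p = 5.1e-05). In 1417900_a_at the controls had 1.85, 1.79 and 2.01 and the HKO livers 3.64, 3.49 and 3.67, a change of 1.71 ± 0.09 (limma adjusted p = 5.1e-05). Both sets of control values lie below the median probe set (3.94), so these differences start from dim signal. The suffix x marks sets in which some probes can match other sequences.

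The remaining 3 Vldlr probe sets, all below the median probe set, differed among themselves. Probe set 1435893_at went from 2.21, 1.99 and 2.87 to 3.84, 3.33 and 3.74, a log2 fold change of 1.28 ± 0.22 (limma adjusted p = 0.0468). It passed in 1 of 6 fits without 1 array, that without control 3 (1.54, 0.0129). Its adjusted p was 0.166 without control 1, 0.144 without control 2, 0.196 without HKO 1, 0.0645 without HKO 2 and 0.164 without HKO 3, with changes of 1.09 to 1.43. Probe sets 1442169_at (0.42 ± 0.12, adjusted p = 0.233) and 1451156_s_at (0.28 ± 0.15, adjusted p = 0.519) did not pass, and the groups of the latter overlapped.

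The estimate for Vldlr therefore depends on the probe set, from 0.28 to 2.01 log2 units. The interval of the brightest, 0.73 to 1.15, does not reach that of 1434465_x_at, 1.77 to 2.26, and the difference between them was not tested. Taking the median over its 6 probe sets, Vldlr rose by 1.25 (limma adjusted p = 0.0104 over genes). The other 3 probe sets that rose, 1438258_at, 1434465_x_at and 1417900_a_at, passed in all 6 fits without 1 array, at adjusted p up to 0.0214.

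**Figure D2:**
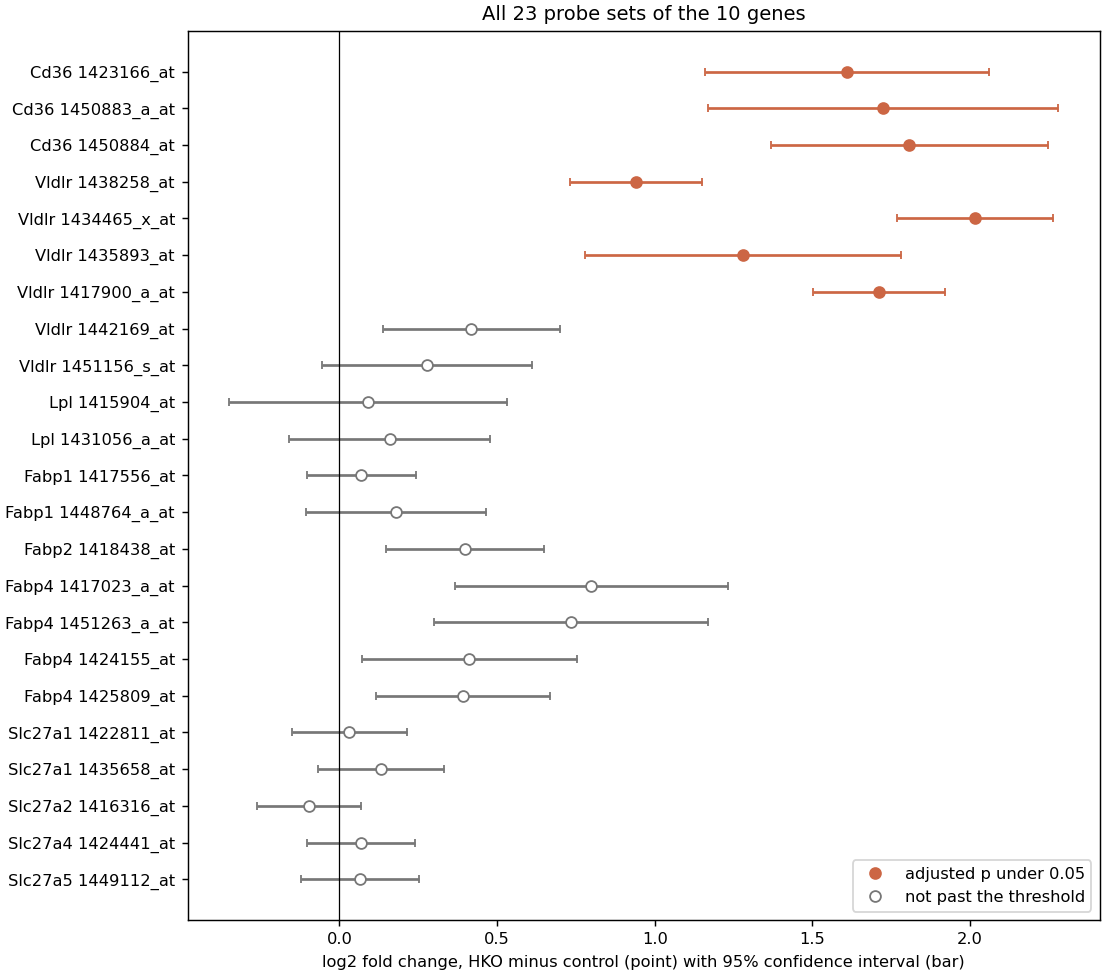
Log2 fold change (horizontal axis, HKO minus control) of all 23 probe sets with unadjusted 95% confidence intervals; filled points passed an adjusted p of 0.05. The 3 Cd36 sets lie together between 1.61 and 1.81, the 6 Vldlr sets spread from 0.28 to 2.01, and all Slc27a intervals stay between -0.26 and 0.33.

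**Figure D3:**
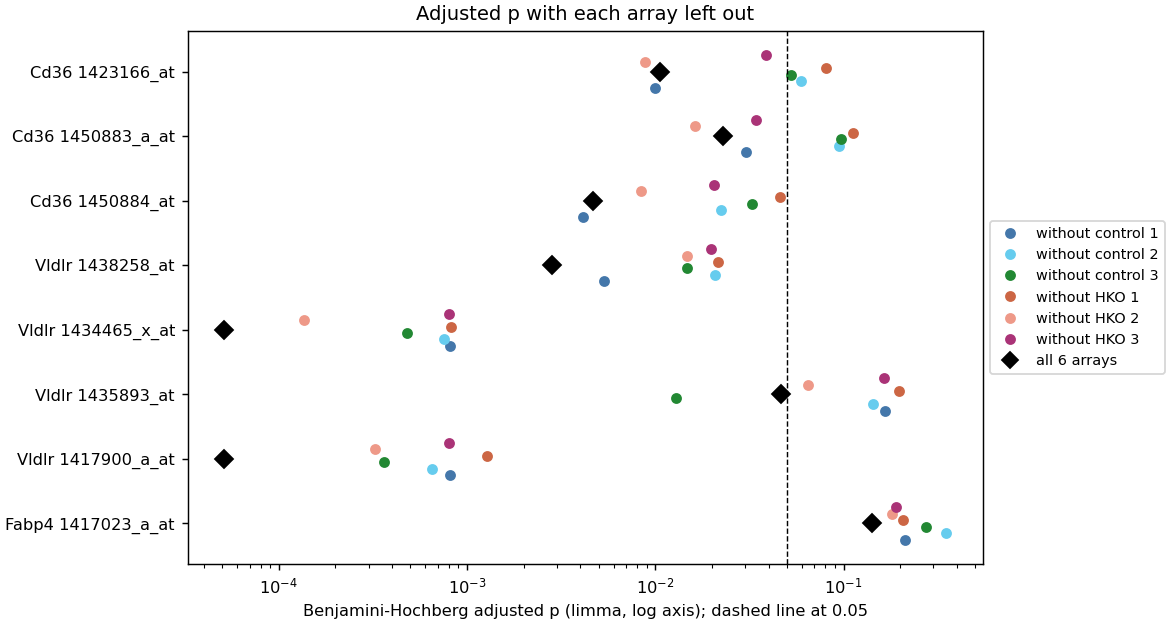
Adjusted p (log axis, limma) of the 7 probe sets that rose and of the brightest Fabp4 set, with all 6 arrays (diamonds) and without each array (circles); the dashed line marks 0.05. Circles of 1423166_at and 1450883_a_at (Cd36) and of 1435893_at (Vldlr) fall on both sides of the line, and those of Fabp4 stay right of it.

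Promoter sequences are shown for the 2 genes that rose and for Fabp1, whose promoter holds a pair of nuclear receptor half-sites. Fabp1 did not pass, and its bright signal may be compressed. A link between these sites and the changes was not tested. PPARs and their RXR partners bind direct repeats of AGGTCA with 1 base between them. RefSeq windows of 250 bases before the transcription start (build GRCm38.p6, read 5′ to 3′ on the gene's strand) matched 7 of the 10 genes by symbol, with 10 windows. Vldlr has 2 windows, for 2 starts. Capitals mark matches on either strand to AGGTCA, to 2 copies of the looser AGGNCA in a row with 1 base between them (the looser repeat), or to the GC box GGGCGG.
Cd36, chr5:17835897-17836146, minus strand: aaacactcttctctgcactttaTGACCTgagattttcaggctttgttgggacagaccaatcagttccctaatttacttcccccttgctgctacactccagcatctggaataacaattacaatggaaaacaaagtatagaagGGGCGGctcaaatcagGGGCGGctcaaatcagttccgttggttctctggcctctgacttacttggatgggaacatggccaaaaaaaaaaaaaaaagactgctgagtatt
Vldlr, first start, chr19:27216234-27216483, plus strand: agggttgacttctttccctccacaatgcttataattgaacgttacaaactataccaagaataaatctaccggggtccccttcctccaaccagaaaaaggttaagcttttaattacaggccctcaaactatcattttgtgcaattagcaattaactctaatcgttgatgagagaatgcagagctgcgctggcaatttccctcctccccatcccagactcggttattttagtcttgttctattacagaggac
Vldlr, second start, chr19:27216770-27217019, plus strand: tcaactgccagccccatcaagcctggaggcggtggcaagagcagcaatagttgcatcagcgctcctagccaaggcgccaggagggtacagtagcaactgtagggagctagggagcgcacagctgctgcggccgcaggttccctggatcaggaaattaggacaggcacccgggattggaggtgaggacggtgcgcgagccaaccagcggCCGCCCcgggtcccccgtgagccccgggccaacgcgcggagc
Fabp1, chr6:71199629-71199878, plus strand: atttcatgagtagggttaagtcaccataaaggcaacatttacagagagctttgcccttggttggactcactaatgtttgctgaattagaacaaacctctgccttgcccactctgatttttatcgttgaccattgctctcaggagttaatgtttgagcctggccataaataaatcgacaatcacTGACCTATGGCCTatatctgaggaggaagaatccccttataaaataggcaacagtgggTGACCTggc

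Cd36 has 1 AGGTCA match, on the opposite strand and 228 bases before the start, and 2 GC boxes at 109 and 93 bases before it. The first Vldlr window has no match to any of the 3 motifs, and the second has 1 GC box, 42 bases before the start. Fabp1 has 2 AGGTCA matches, at 67 and 9 bases before the start, and the former is part of its single match to the looser repeat. Of all 32851 RefSeq windows of this length 14.0% hold AGGTCA, 32.7% hold GGGCGG and 0.338% hold the looser repeat. Among the other 6 windows of these genes, that of Slc27a2 holds AGGTCA, 220 bases before the start. These matches describe letters in a short window and show no binding.

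Fabp4, the adipocyte and macrophage fatty acid binding protein, is another gene that PPARg activates. In its brightest probe set, 1417023_a_at, the controls had 6.81, 6.41 and 6.60 and the HKO livers 7.15, 7.20 and 7.87. All HKO values lay above all controls, by 0.336 at the closest, and HKO 3 stood apart from the other two. The log2 fold change was 0.80 ± 0.19 (SE, n = 3 each; limma adjusted p = 0.141), with an interval of 0.37 to 1.23.

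The dimmer Fabp4 probe set 1451263_a_at had a similar value, 0.73 ± 0.19 (limma adjusted p = 0.179), from controls of 4.02, 3.89 and 3.81 to HKO values of 4.41, 4.37 and 5.15. The remaining 2 sets, 1424155_at and 1425809_at, stood at 0.41 and 0.39 (adjusted p of 0.323 and 0.256), with means below the median probe set. HKO 3 was the highest HKO liver in 3 of the 4. Without HKO 3 the brightest set had a log2 fold change of 0.566, and 1451263_a_at one of 0.481. No Fabp4 probe set passed in any of the 6 fits without 1 array.

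Lpl, the enzyme that releases fatty acids from lipoprotein triglyceride, had overlapping groups. Its brightest probe set, 1415904_at, had control values of 8.24, 7.90 and 8.04 and HKO values of 7.66, 8.34 and 8.46. HKO 1 was the lowest and HKO 3 the highest of the 6 livers. The log2 fold change was 0.09 ± 0.19 (SE; limma adjusted p = 0.898), with an interval from -0.35 to 0.53, and it was -0.062 without HKO 3. Probe set 1431056_a_at stood at 0.16 ± 0.14 (adjusted p = 0.724), and again HKO 1 was lowest and HKO 3 highest.

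Among the cytosolic binding proteins, Fabp1 is the abundant liver form and delivers ligands to PPARa. In its brightest probe set, 1417556_at, the controls had 12.997, 13.10 and 13.11 and the HKO livers 13.12, 13.11 and 13.18. The difference was 0.07 ± 0.08 log2 units (limma adjusted p = 0.784), with an interval from -0.10 to 0.24. This set is brighter than nearly every other on the arrays (the highest log2 value is 13.64), where signal may be compressed. The other set, 1448764_a_at, stood at 0.18 ± 0.13 (adjusted p = 0.646), with control 1 lowest at 12.25.

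Fabp2, the intestinal form, which mouse liver also expresses, had control values of 10.33, 10.47 and 10.68 and HKO values of 10.98, 10.76 and 10.94. The groups did not overlap, with a gap of 0.072. Its log2 fold change of 0.40 ± 0.11 (SE, n = 3 each) did not pass (limma adjusted p = 0.209; interval 0.15 to 0.65).

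The RNA of the Slc27a genes stayed near the control level in all 5 of their probe sets, between -0.10 and 0.13 log2 units. Slc27a2, the main hepatic very-long-chain transporter and synthetase, had 12.15, 12.12 and 12.15 in controls and 12.07, 12.03 and 12.03 in HKO livers. Its groups did not overlap, and its difference of -0.10 ± 0.07 was the only negative value of the 23 (limma adjusted p = 0.668). Slc27a5, a liver protein that also activates bile acids, had 11.65, 11.61 and 11.53 against 11.74, 11.67 and 11.57 (0.07 ± 0.08, limma adjusted p = 0.815). Like Fabp1, Slc27a2 and Slc27a5 are brighter than nearly every other probe set, where signal may be compressed.

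Slc27a4, a broadly expressed transporter, had 6.39, 6.33 and 6.26 against 6.39, 6.39 and 6.41 (0.07 ± 0.08, limma adjusted p = 0.783). Slc27a1, the form of muscle and fat, had 4.74, 4.57 and 4.70 against 4.68, 4.73 and 4.70 in its brightest set, 1422811_at (0.03 ± 0.08, limma adjusted p = 0.915), and 0.13 ± 0.09 in 1435658_at (adjusted p = 0.621). The widest bounds of the 5 intervals were -0.26 and 0.33, so a change as large as that of Cd36 lies outside all of them.

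Groups did not overlap in 14 of the 23 probe sets, 13 with HKO above and 1 with HKO below. Over all probe sets 16.9% had no overlap, 7.8% with HKO above and 9.15% with HKO below. Of the 14, 7 did not pass the test, and these include 3 of the 4 Fabp4 sets.

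**Figure D4:**
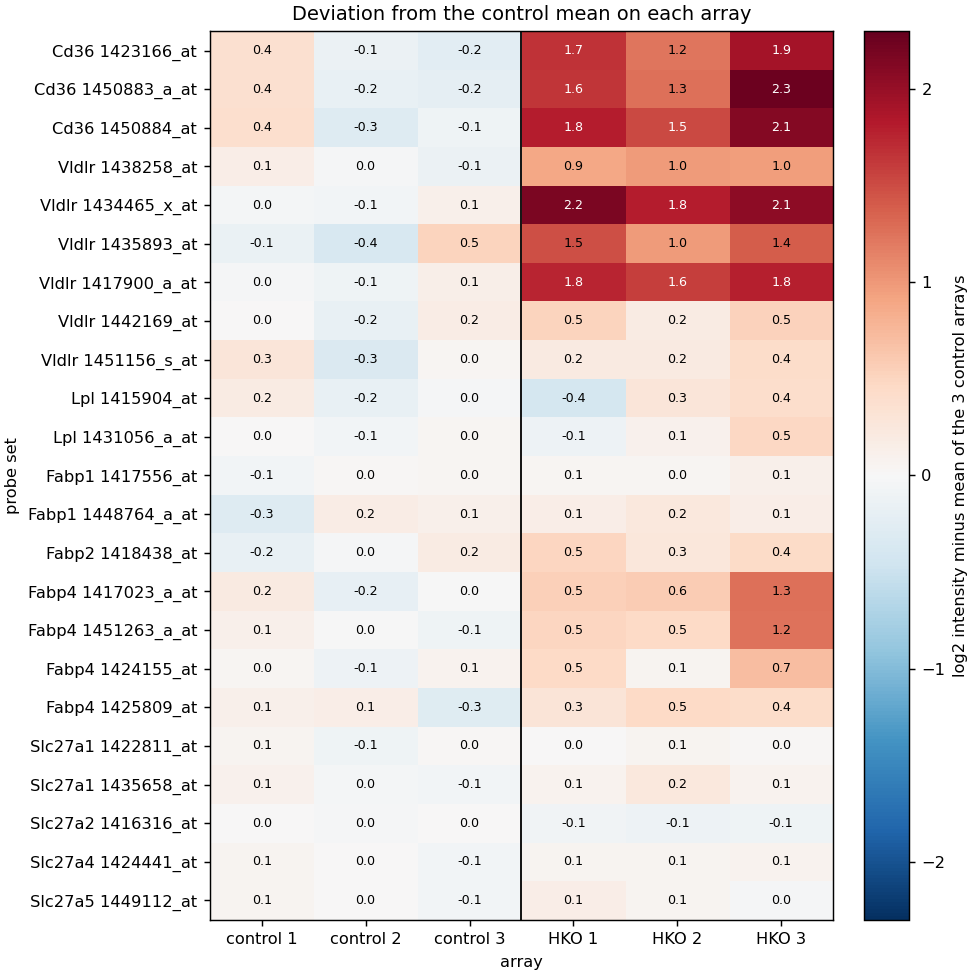
Log2 intensity of each of the 23 probe sets (rows) on each array (columns) minus the mean of the 3 control arrays; red is above and blue below that mean, and numbers give the difference. Cd36 and the first 4 Vldlr sets are red on all 3 HKO arrays, and HKO 3 is deepest for Cd36 and the 2 brightest Fabp4 sets.

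Genes around the uptake step were examined in 4 lists, with 1 probe set for each gene and adjustment over all 18029 genes. Of 54 measured genes 1 rose and 1 fell, against 0.56% and 0.449% of all genes. Pparg, the nuclear receptor that activates Cd36 and Fabp4, had 4.82, 4.69 and 5.02 in controls and 5.85, 5.56 and 6.12 in HKO livers. It rose by 1.00 ± 0.15 log2 units (SE, n = 3 each; limma adjusted p = 0.0246). As in Cd36, HKO 3 was the highest and HKO 2 the lowest HKO liver. The order of the controls differed, with control 3 highest for Pparg and control 1 for Cd36. A link between Pparg and Cd36 was not tested. Pparg passed without HKO 2 (0.0118) but not without control 1 (0.0969), control 2 (0.0948), control 3 (0.0527), HKO 1 (0.115) or HKO 3 (0.0518).

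Of 16 transcription factors of uptake genes Pparg alone passed, and the list median was 0.10. Nr1i3 (CAR) stood at 0.52 (limma adjusted p = 0.0616), and past the threshold without control 1 (0.62, 0.0322). Ppara, which activates many fatty acid genes in hepatocytes, stood at 0.09, 0.10 and 0.12 in its 3 probe sets (adjusted p of 0.767, 0.747 and 0.627).

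Of 14 genes for acyl-CoA trapping and carriers Cav1 fell and 13 did not pass (median -0.01). Cav1, the coat protein of caveolae, had 5.79, 5.51 and 6.20 in controls and 4.45, 4.78 and 4.69 in HKO livers, a log2 fold change of -1.19 ± 0.17 (limma adjusted p = 0.022). It did not pass without control 1 (0.0827), HKO 1 (0.111) or HKO 3 (0.0709). Acbd5, a peroxisomal acyl-CoA binding protein, stood at 0.35 (adjusted p = 0.258), and at -0.06 by the median of its probe sets.

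None of 12 relatives of the 10 genes passed (limma; 0 higher and 2 lower at an unadjusted p under 0.05; median -0.04). Scarb1, the HDL receptor of the CD36 family, stood at -0.48 (adjusted p = 0.199) and Lrp1, a hepatic receptor for lipoprotein remnants, at -0.33 (0.263). By the median of probe sets Scarb1 stood at -0.43 (limma adjusted p = 0.243) and Lrp1 at -0.59 (0.0872). Fabp5, the epidermal form, named here after its values were seen, had 8.65, 8.29 and 10.11 in controls and 6.91, 6.79 and 9.09 in HKO livers. Its difference of -1.42 ± 0.66 lay within this wide spread (limma adjusted p = 0.416).

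None of 12 partners and inhibitors of Lpl and Vldlr passed (limma; 1 higher and 2 lower at an unadjusted p under 0.05; median 0.02). Gpihbp1, which anchors Lpl to capillaries, stood at 0.39 (adjusted p = 0.188). Angptl4, a secreted inhibitor of Lpl and a known PPAR target, stood at -0.42 (adjusted p = 0.34). By the median of its probe sets Angptl4 stood at -0.15 (limma adjusted p = 0.729).

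**Figure D5:**
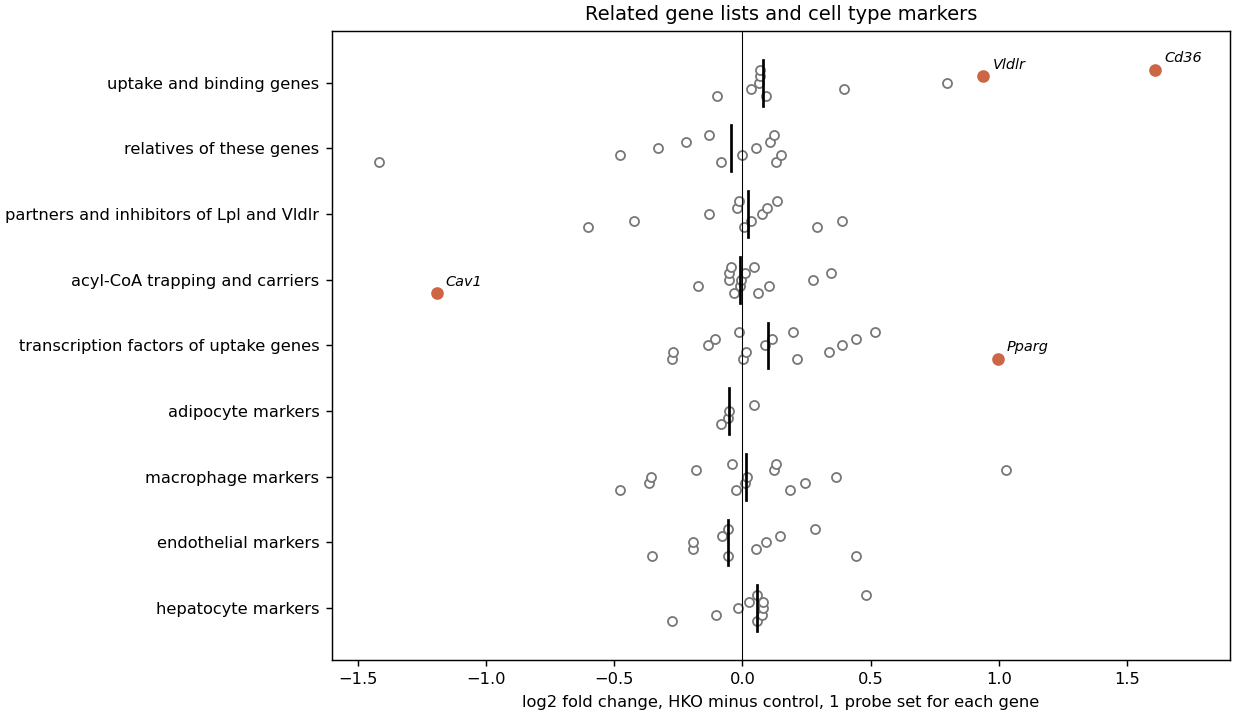
Log2 fold change (horizontal axis, HKO minus control, 1 probe set for each gene) of each measured gene in the uptake and binding group, 4 related lists and 4 marker lists; filled points passed an adjusted p of 0.05 and bars mark list medians. Filled points are Cd36, Vldlr, Pparg and Cav1, and all list medians lie between -0.06 and 0.10.

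Adipocytes, macrophages and endothelial cells also express Cd36, Lpl, Fabp4 or Vldlr, so their markers were measured in the same livers. In bulk liver RNA, more cells of a type and more RNA per cell cannot be told apart. None of 4 measured adipocyte markers passed (limma; 0 at an unadjusted p under 0.05). Adipoq, the adipocyte hormone adiponectin, stayed between 1.57 and 2.03 and Lep, leptin, between 2.55 and 2.90 on all 6 arrays, far below the median gene (4.69). The summed linear intensity of the 4 was 43.3 to 46.6 in controls and 42.1 to 48.2 in HKO livers. Such a sum is weighted to its brightest probe set, here that of Retn (mean 4.66).

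None of 14 macrophage markers passed (limma; 0 higher and 2 lower at an unadjusted p under 0.05). Their summed intensity was 3058 to 4425 in controls and 3563 to 4068 in HKO livers, with the scavenger receptor Cd163 at -0.48 (adjusted p = 0.05) and the chemokine receptor Ccr2 at -0.36 (0.188). Cd163 passed as lower in 5 other fits of all arrays at the same threshold (adjusted p from 0.0249 to 0.0491) and in none of the 6 without 1 array, and Ccr2 stood at 0.12 by the median of its probe sets. None of 11 endothelial markers passed (0 higher and 1 lower at an unadjusted p under 0.05), with sums of 1038 to 1220 and 1009 to 1189, Tie1 at -0.35 (0.102) and Emcn at 0.28 (0.433). None of 10 hepatocyte markers passed (0 higher and 1 lower at an unadjusted p under 0.05), with sums of 54700 to 56320 and 54820 to 58000. In all 4 marker lists the summed levels of the genotypes overlapped. The sums follow the brightest probe sets of each list, so they can miss changes in dimmer markers and do not measure cell content.

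Genes whose pattern over the 6 arrays was most like that of Cd36 were ranked by Pearson r, as a description, among 8817 genes brighter than the median gene. The first 5 were Hsd17b11 (0.998), Clybl (0.996), Pnldc1 (0.992), Mogat1 (0.990) and Sugct (0.990). Of these Pnldc1 rose by 1.12 log2 units (limma adjusted p = 0.00478) and Mogat1, a monoacylglycerol acyltransferase, by 2.34 (0.00554). Hsd17b11, a dehydrogenase of lipid droplets, differed by 0.13 (0.479), so a high r can go with a small difference. For Vldlr the first 5 were Cry2 (0.998), Uck1 (0.995), Actg1 (0.995), Mipep (0.994) and Slc25a25 (0.993), of which Slc25a25, a mitochondrial carrier, rose by 0.73 (0.014). With 6 arrays in 2 groups such values are common: r was over 0.95 for 111 genes with Cd36 and 83 with Vldlr.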

How the data were processed

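Liver RNA of 3 control and 3 HKO mice was labelled from 400 ng and hybridised to Affymetrix arrays, per the labels' protocols. The deposited log2 values of 38208 probe sets come from RMA run by the authors; the submitters' processing notes name RMA and limma, without versions or settings. RMA pulls dim values toward a floor, which shrinks their fold changes, and would hide a shift of all transcripts.

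Leaving out 13 Affymetrix controls, 38195 probe sets were tested one by one with limma 3.58.1 in R 4.3.3 (lmFit, eBayes, two-sided, genotype only), with Benjamini-Hochberg adjustment over all of them and a threshold of 0.05. Of these, 34325 have 1 gene symbol in the platform annotation, 62 several and 3808 none. Related lists used the probe set of highest mean for each of 18029 genes. No 2 arrays were identical. Mice are separate biological samples per the labels, and the number of arrays limits precision; an exact permutation test of 3 against 3 cannot go below p = 0.1. No other per-sample columns existed.

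Named were all probe sets of the 10 genes, Tmbim1, list genes past the threshold or otherwise the 2 of lowest p, and the 5 genes most like Cd36 or Vldlr without provisional symbols. The genes, lists and tests were chosen with earlier results of these data known. In data simulated for 38195 probe sets, changes of 0.5, 1 and 2 log2 units were found in 58.2%, 98.5% and 100% of cases. Of 182 calls there, 11 were false. Whether these rates hold for the liver data was not tested. In the livers, Cav1 at -1.19 ± 0.17 log2 units (SE) passed, while Fabp5 at -1.42 ± 0.66 did not. Alternatives were other normalization, centring, a filter on dim probe sets, 1 value for each gene, other variance models, array weights, a replicate block, a threshold of 0.1 and leaving out each array.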

Additional observations from a re-analysis of the deposited data

How the results depend on the processing

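Of the 23 probe sets, the 7 that rose kept their direction in every refit. With trend and robust variances 5 of them passed, without 1450883_a_at of Cd36 (adjusted p = 0.0911) and 1435893_at of Vldlr (0.0534), and after quantile normalization 6 passed (0.051 for 1435893_at). With 1 value for each gene, the brightest probe set or the median, 2 genes rose, since only 10 values were then counted. In the 6 fits without 1 array 4 to 6 probe sets rose and 0 fell. The count was 4 without control 2 and without HKO 1, and 5 or 6 without the others.

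Over all probe sets 140 were higher and 128 lower. Without 1 array, and so with a smaller group, there were 58 to 116 higher and 29 to 81 lower. Why these counts differ between arrays was not tested. With 1 probe set for each gene 81 were lower, with trend and robust variances 197, and at a threshold of 0.1 there were 212 higher and 256 lower. In the related lists 1 rose and 1 fell. Nr1i3 made it 2 higher without dim probe sets (0.0452), with trend and robust variances (0.0257) and at 0.1, and 2 fell with the replicate block (Cav1, 0.0397, and Fabp5, 0.017); without 1 array 0 to 1 rose and 0 to 1 fell.

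Some values that did not pass changed sign. Without 1 array, Slc27a1 (1422811_at) lay between -0.017 (without control 2) and 0.066. Lpl (1415904_at) lay between -0.062 (without HKO 3) and 0.336, and was -6e-04 without HKO 2. Lpl (1431056_a_at) lay between -0.0046 (without HKO 3) and 0.295. By the median of probe sets Acbd5 stood at -0.058, Ccr2 at 0.116 and Hnf4a at 0.015, and the causes were not tested. Adipoq lay between -0.171 and 0.052 and Lep between -0.112 and 0.059, both highest without control 2.

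Same-numbered samples of the 2 genotypes correlated in their deviations at -0.094, 0.069 and 0.112, so the numbers were not taken to pair them. With the replicate number as a block 124 probe sets were higher and 97 lower, the same count of 7 was reached among the 23, and Tmbim1 had an adjusted p of 0.0828. Dim signal limits at least 6 of the 23 probe sets, all of Vldlr or Fabp4, whose means over all 6 arrays lie below the median probe set (3.94). The other Vldlr sets, 1438258_at and 1434465_x_at, had means of 4.42 and 4.04, little above it. These means include the HKO arrays. The control mean was 3.03 for 1434465_x_at and 3.91 for 1451263_a_at of Fabp4, both below that median. The filter on dim probe sets therefore kept both only through their HKO values.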
